A study of Drosophila melanogaster with 6 samples.

Results

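The CD36 family of *Drosophila melanogaster* was followed in the antenna of adult females through 7 genes, *Snmp1*, *Snmp2*, *santa-maria*, *ninaD*, *emp*, *crq* and *pes*. They were selected by name, and all 7 were matched by symbol among 17698 gene identifiers counted in every sample. Another 7 genes of the family (*dsb*, *CG2736*, *CG3829*, *CG7227*, *CG10345*, *CG31741* and *CG40006*) are given beside them. Antennal RNA was sequenced from 3 control samples and 3 samples titled E93RNAi. In the latter, RNA interference was directed at *Eip93F*, the gene of the ecdysone-induced transcription factor E93.

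The flies of both groups were females of 2 to 5 days, reared at 25 °C with 350 females of a genotype for each replicate, so that each sample is a pool of animals. Both groups carried peb-Gal4 and UAS-Dcr2. The driver peb-Gal4 is known for activity in olfactory sensory neurons, and *Dcr-2* encodes an enzyme that strengthens RNA interference. The groups differed in the third element, the hairpin UAS-E93KK108140 or the hairpin-free VIE-260B. The labels' treatment text gives the hairpin to the control and VIE-260B to E93RNAi, against the sample titles and descriptions. Samples were grouped by title, and directions below are those of the samples titled E93RNAi against those titled Control. The targeted gene had 369.2, 399.6 and 376.7 CPM (read counts scaled to library size) in control replicates 1 to 3 and 348.7, 336.4 and 318.6 CPM in the E93RNAi replicates, a log2 fold change of *Eip93F* of -0.19 ± 0.05 (SE, n = 3 per group; edgeR adjusted p = 0.0119). Its adjusted p in edgeR was 0.0564 without control replicate 2 and 0.0552 without E93RNAi replicate 3, both at -0.16.

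CD36-family proteins cross the membrane near both ends and hold a large loop outside the cell, which binds lipids and other hydrophobic ligands. In insects they take up carotenoids, bind dying cells and bacteria, and, as the sensory neuron membrane proteins, pass lipid pheromones towards receptors on the cilia of olfactory neurons. *Snmp1* is required in the fly for the response of neurons that express *Or67d* to the male pheromone cis-vaccenyl acetate. *Snmp2* is a gene of the support cells around the neurons.

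Total gene counts were 16639918 to 18400979 reads per sample. The neuronal markers *elav* and *Orco* and the support-cell markers *Obp83a* and *lush* were counted in every sample, as in an antenna. Of all 9237 tested genes, 24.3% passed the test, 13.8% as higher and 10.5% as lower. Of 8 neuronal markers tested, *Orco* fell and 7 did not pass the test. The summed level of 12 support-cell markers was 48458 to 50946 CPM in the controls against 49119 to 53021 CPM under E93RNAi, with 4 higher, 4 lower and 4 not called. Of 6 glial markers tested, 5 rose and 1 fell. The sum of the 7 listed was 3189 to 3293 CPM in the controls against 2946 to 3043 CPM under E93RNAi. *Gs2*, the marker that fell, made up most of that sum. It had 2750 ± 49.7 CPM in the controls against 2344 ± 29.5 CPM under E93RNAi (SD, n = 3). Among those that rose, *wrapper* had 20, 6 and 21 counts in the controls against 46, 94 and 82 under E93RNAi. It passed the filter on low counts only with its E93RNAi samples. Muscle markers summed to 16.7 CPM in E93RNAi replicate 1 and 19.8 CPM in E93RNAi replicate 3, against 2.01 to 3.89 CPM in the other 4 samples, and 1 of 2 tested muscle markers passed the test as higher. That call was lost by DESeq2, by limma voom and without control replicate 2 or 3 or E93RNAi replicate 3, and without E93RNAi replicate 2 the list had 4 calls. Of 5 fat-body markers tested, 1 passed as higher and 1 as lower. The higher one was lost by DESeq2, by limma voom and without control replicate 1 or 2 or E93RNAi replicate 2 or 3. Without E93RNAi replicate 2 the list had 2 lower calls. In such bulk samples, fewer cells of a type and less RNA per cell cannot be told apart.

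Within the family, *Snmp1* and *emp* were lower in E93RNAi and *Snmp2* was higher, while *santa-maria*, *crq* and *pes* did not pass the test. *ninaD* had too few counts to be tested. Thus 3 of the 6 tested members changed, 1 up and 2 down, where 24.3% of 9237 tested genes changed (13.8% up and 10.5% down, edgeR's quasi-likelihood test with Benjamini-Hochberg adjusted p under 0.05). The control and E93RNAi samples did not overlap for the same 3 members, where 37.5% of all tested genes had groups that did not overlap. The median log2 fold change of the 6 tested members was 0.07, beside a median near 0 (0.000278) over all tested genes. The members' summed level was 2990 ± 144.5 CPM in the controls against 2468 ± 64.3 CPM under E93RNAi (SD, n = 3; exact two-sided permutation p = 0.1, the smallest that 3 against 3 allows).

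**Figure D1:**
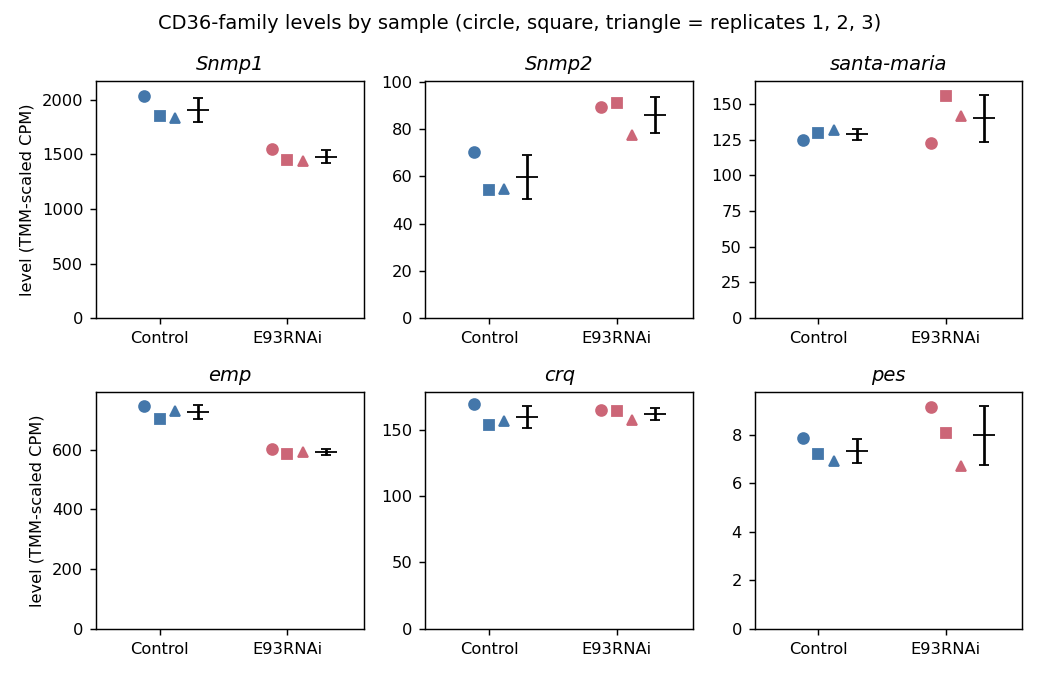
Levels of the 6 tested CD36-family genes in each sample, in TMM-scaled CPM on axes that start at 0; symbols are replicates 1 to 3 and the black marks are mean ± SD (n = 3). The control and E93RNAi points are apart for *Snmp1*, *Snmp2* and *emp* and overlap for *santa-maria*, *crq* and *pes*.

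*Snmp1* (FBgn0260004) lies on the minus strand of arm 3R, 3R:21165167-21168205 in the BDGP6.54 annotation, with 2280 exonic bases and no exon shared with another gene. Its level was 2039, 1854 and 1833 CPM in control replicates 1 to 3 and 1551, 1453 and 1438 CPM in E93RNAi replicates 1 to 3. Every E93RNAi sample lay below every control sample, and replicate 1 was the highest in each group. *Snmp1* fell by 22.4%, a log2 fold change of -0.37 ± 0.05 (SE, n = 3 per group; edgeR adjusted p = 0.000235). Of all tested genes, 16.7% had a larger absolute log2 fold change. Per kilobase of exon, *Snmp1* ranked 55th among tested genes in control, at 837.1 ± 49.6 CPM per kilobase (SD, n = 3). The summed level of the 8 neuronal markers was 6711 to 7066 CPM in the controls against 6088 to 6484 CPM under E93RNAi. *Orco*, the largest part of that sum, had 3314 ± 53.6 CPM in the controls against 2888 ± 40.0 CPM under E93RNAi (SD, n = 3). The other 7 markers did not pass the test, so the sum does not show a general fall of neuronal markers. The part of neurons in the fall of *Snmp1* was not tested.

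*Snmp2* (FBgn0035815), on the minus strand of arm 3L at 3L:7733250-7743041, shares no exon with another gene. Its level was 70.3, 54.3 and 54.4 CPM in control replicates 1 to 3 and 89.4, 90.9 and 77.3 CPM in E93RNAi replicates 1 to 3. The lowest E93RNAi sample was above control replicate 1, which stood above the other two controls. *Snmp2* rose by 44.0%, a log2 fold change of 0.53 ± 0.09 (SE, n = 3 per group; edgeR adjusted p = 0.0011), and 11.1% of all tested genes had a larger absolute change. The summed level of the support-cell markers overlapped between the groups, as given above, but a few abundant genes dominate it. The largest, *Obp19d*, had 17567 ± 761 CPM in the controls against 16324 ± 733 CPM under E93RNAi (SD, n = 3). Single markers moved both ways, with 4 of 12 higher and 4 lower, from *a5* at -1.32 to *nompA* at 3.23 on the log2 scale. Of 6 glial markers, 5 rose, where 13.8% of all tested genes rose. *wrapper*, 1 of those that rose, had few control counts, while *Gs2*, most of the glial sum, fell. The part of support cells or glia in the rise of *Snmp2* was not tested.

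The 2 sensory neuron membrane protein genes thus moved in opposite directions, and their ratio within a sample, which needs no library scaling, differed between the groups. Per kilobase, *Snmp1* was 36.1, 42.5 and 41.9 times *Snmp2* in control replicates 1 to 3 and 21.6, 19.9 and 23.2 times *Snmp2* in E93RNAi replicates 1 to 3. The groups did not overlap, and the mean log2 ratio was 5.32 ± 0.13 in control and 4.43 ± 0.11 in E93RNAi (SD, n = 3), a 1.86-fold lower ratio. The exact two-sided permutation p was 0.1, the smallest this design allows.

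*Snmp1* was read beside a list of 10 genes of pheromone detection. Of these, 2 rose, 7 fell and 1 did not pass the test, where 24.3% of all tested genes changed. The list was chosen with earlier results of these data known, and 5 of its genes are receptors of the at4 trichoid sensillum, all lower. Its share of changed genes is therefore no evidence about pheromone detection as a whole. The median log2 fold change of -0.86 falls in the gap between *ATP8B* at -0.21 and *Or88a* at -1.51. *lush*, which encodes the odorant-binding protein required for the cis-vaccenyl acetate response, had 2037, 1904 and 1929 CPM in the controls against 2296, 2234 and 2358 CPM under E93RNAi (log2 fold change 0.23 ± 0.05, SE; edgeR adjusted p = 0.00238). *Or67d*, the receptor for that pheromone, had 49.8, 43.5 and 47.7 CPM in the controls against 58.9, 67.0 and 58.5 CPM under E93RNAi (log2 fold change 0.39 ± 0.07, SE; edgeR adjusted p = 0.000874). Both were higher in every E93RNAi sample than in any control sample, where 37.5% of all tested genes had groups that did not overlap. Thus *Snmp1* fell while *lush* and *Or67d* rose.

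Among the other genes of this list, *Orco*, the co-receptor of odorant receptors, fell (log2 fold change -0.20 ± 0.04, SE; edgeR adjusted p = 0.00357). *ATP8B*, a phospholipid flippase of olfactory neurons, fell by 0.21 on the log2 scale (edgeR adjusted p = 0.00487). *ppk25*, a channel subunit of the DEG/ENaC family, had a log2 fold change of 0.09 (edgeR adjusted p = 0.472). The receptors of the at4 trichoid sensillum gave the other 5 falls. *Or88a* fell by 1.51 and *Or47b* by 6.84 on the log2 scale, and *Or65a*, *Or65b* and *Or65c* had 0 to 11 counts in each E93RNAi sample. Reads without a unique alignment were left unassigned, so any such reads of these genes are not in their counts. These 5 receptors together had 181.2 ± 5.28 CPM per kilobase in control and 8.93 ± 0.394 in E93RNAi (SD, n = 3), a difference of 172.3, and *Snmp1* had 837.1 ± 49.6 and 649.4 ± 26.8, a difference of 187.7. Whether the fall of *Snmp1* is tied to these receptors' cells was not tested.

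**Figure D2:**
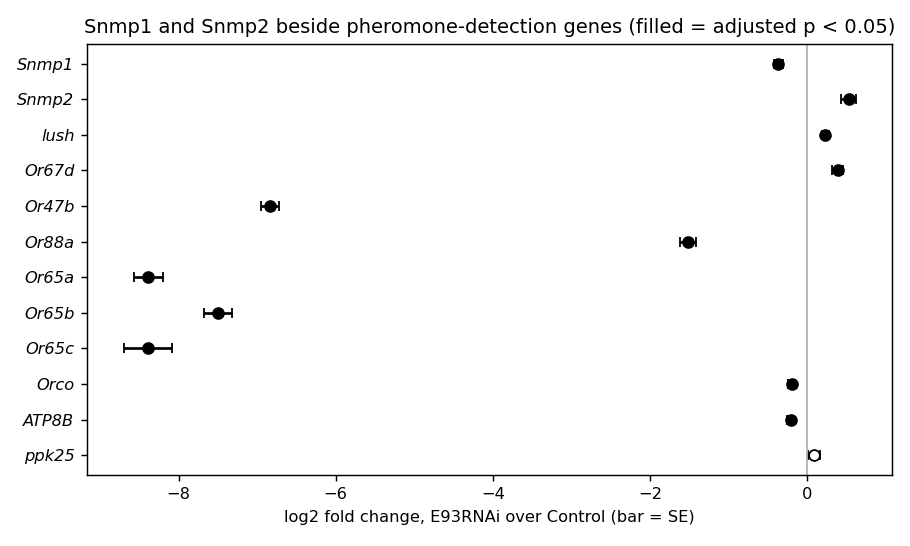
Log2 fold changes (E93RNAi over control, bars are SE, n = 3 per group) of *Snmp1* and *Snmp2* beside 10 genes of pheromone detection; filled circles have an adjusted p under 0.05 in edgeR. *Snmp1* sits at -0.37 among the small falls of *Orco* and *ATP8B*, and *Snmp2*, *lush* and *Or67d* lie right of 0, while the at4 receptors fell by 1.51 to 8.39; for *Or65a*, *Or65b* and *Or65c* the fitted value rests on E93RNAi counts near 0.

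Ratios within a sample were also taken for 3 pairs chosen after the values were seen, which with *Snmp1* to *Snmp2* makes 4. *Snmp1* per *Orco*, each per kilobase, was 0.530, 0.479 and 0.462 in the controls against 0.450, 0.432 and 0.427 under E93RNAi, groups that did not overlap (exact permutation p = 0.1, adjusted p = 0.2 over the 4 ratios). *Snmp1* per *emp* was 4.06 ± 0.17 in control and 3.86 ± 0.11 in E93RNAi (SD, n = 3), and *Snmp2* per *lush* 0.0105 ± 0.00122 and 0.0129 ± 0.00144. The groups overlapped for both of these ratios (exact permutation p = 0.2 for each, adjusted p = 0.2).

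**Figure D3:**
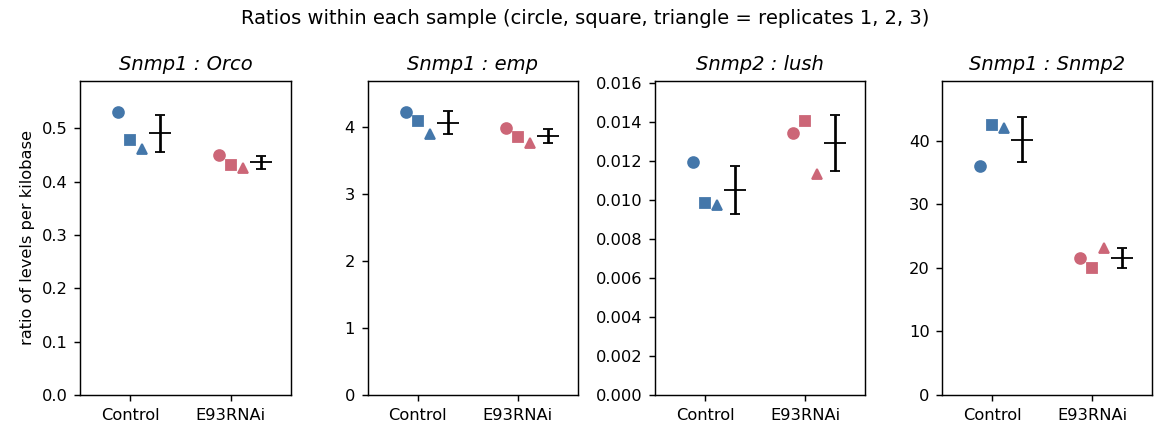
Ratios of levels per kilobase of exon within each sample, on axes that start at 0; symbols are replicates 1 to 3 and the black marks are mean ± SD (n = 3). *Snmp1* per *Snmp2* is 36.1 to 42.5 in the controls against 19.9 to 23.2 under E93RNAi, and the other ratios differ less.

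*emp* (FBgn0010435), the epithelial membrane protein gene, lies on the minus strand at 2R:24976456-24986070. Its level was 745.8, 702.4 and 728.9 CPM in control replicates 1 to 3 and 601.8, 583.8 and 590.8 CPM in E93RNAi replicates 1 to 3. The groups were well apart, with a spread (SD over mean) of 3.01% in control and 1.54% in E93RNAi. *emp* fell by 18.4%, a log2 fold change of -0.29 ± 0.04 (SE, n = 3 per group; edgeR adjusted p = 0.000244). It overlaps the family gene *CG3829* on the opposite strand by 27 exonic bases, and *CG3829* had 1.89 ± 0.488 CPM in control (SD, n = 3).

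*santa-maria* and *ninaD* are carotenoid uptake genes, known in the fly for supplying the visual chromophore, *ninaD* in the gut and *santa-maria* in the head. *santa-maria* (FBgn0025697, 2L:7445355-7451244, minus strand) had 124.7, 129.3 and 131.8 CPM in the controls against 122.5, 155.4 and 141.8 CPM under E93RNAi. E93RNAi replicate 1 lay below all controls and the other two E93RNAi samples above them, and the log2 fold change was 0.12 with a 95% interval of -0.03 to 0.28 (edgeR adjusted p = 0.263). Without E93RNAi replicate 1 it was 0.20 with an adjusted p of 0.0137 (edgeR), the only one of its 13 alternatives that passed the test; without E93RNAi replicate 2 it was 0.04.

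The *santa-maria* exons overlap those of *CG5973* on the opposite strand by 528 of 5563 bases. *CG5973* was the more abundant of the pair, at 1501 ± 33.2 CPM in the controls against 1291 ± 45.5 CPM under E93RNAi (SD, n = 3). The library kit keeps strand, but the strand setting of the counting is not given in the sources used here. The effect of the overlap on the *santa-maria* count is therefore uncertain.

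*ninaD* (FBgn0002939, 2L:18081628-18083608, plus strand) had 2, 1 and 1 counts in the controls against 2, 2 and 5 counts under E93RNAi. These are at or near the floor of 3 counts per library (0.163 to 0.180 CPM, counting error only), and no fold is given. Of 5 further genes of carotenoid and vitamin A metabolism, 2 could be tested and both fell, where 10.5% of all tested genes fell. So few genes do not describe the pathway. *ninaB*, the enzyme that cleaves carotenoids, had 84.5 ± 2.02 CPM in the controls against 74.8 ± 1.25 CPM under E93RNAi (SD, n = 3; edgeR adjusted p = 0.00823), and *pinta*, a retinoid-binding protein gene, 17.6 ± 1.09 and 12.6 ± 0.385 CPM (edgeR adjusted p = 0.000679). *ninaE*, the main photoreceptor opsin, had 1 to 5 counts in each sample, and *ninaG* and *rdhB* had 0 to 2. Among 6 photoreceptor markers, *ninaC* and *trp* rose, where 13.8% of all tested genes rose. *Rh4*, also called higher, had 1 to 2 counts in the controls against 11 to 18 under E93RNAi, so that it passed the filter on low counts only through the group where it was high, and it was not tested at a mean of at least 10 counts. *inaD*, too low to be tested, had 4 to 9 counts in the controls against 0 in every E93RNAi sample. All 6 together gave 8.33 to 8.94 CPM in the controls against 14.9 to 17.0 CPM under E93RNAi. Their part in the values of *ninaB* and *pinta* was not tested.

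*crq* and *pes* are receptors for particles. *crq*, or croquemort, is known in the fly as a macrophage receptor for apoptotic cells, and *pes*, or peste, for the entry of mycobacteria into cultured fly cells. *crq* (FBgn0015924, 2L:448254-453024, minus strand) had 169.1, 153.2 and 156.8 CPM in the controls against 164.6, 163.6 and 156.9 CPM under E93RNAi. The samples of the groups were interleaved, and the log2 fold change was 0.02 with a 95% interval of -0.08 to 0.12 (edgeR adjusted p = 0.832). Of all tested genes, 90.4% had a larger absolute change than *crq*. Its exons overlap those of *ex* on the opposite strand by 448 bases, and *ex* had 34.3 ± 2.5 CPM in control (SD, n = 3).

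*pes* (FBgn0031969, 2L:7986786-7994184, minus strand) had 7.85, 7.20 and 6.90 CPM in the controls against 9.14, 8.04 and 6.72 CPM under E93RNAi. E93RNAi replicate 3 was the lowest of all 6 samples and E93RNAi replicate 1 the highest. The log2 fold change was 0.12 with a 95% interval of -0.16 to 0.40 (edgeR adjusted p = 0.569), on 124 to 156 counts per sample.

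Genes of engulfment and uptake were described beside *crq* and *pes* from a list of 11, of which 10 were matched and tested. Here 2 rose and 8 did not pass the test, a share near the 24.3% of all tested genes that changed. *Itgbn*, an integrin beta subunit that acts in the engulfment of apoptotic cells, rose from 15.3 ± 2.02 to 23.2 ± 2.22 CPM (SD, n = 3; edgeR adjusted p = 0.000738). *ced-6*, an adaptor of the engulfment receptor Draper, rose from 269.3 ± 12.2 to 298.5 ± 5.76 CPM (edgeR adjusted p = 0.0302), but its call was lost without control replicate 2 or 3 or E93RNAi replicate 2 or 3 (edgeR adjusted p of 0.0837 to 0.134), which left 1 call in the list. The gene of Draper, *drpr*, had 247.7 ± 5.49 and 239.2 ± 6.61 CPM (edgeR adjusted p = 0.45). Of 6 haemocyte markers tested only *Pxn* passed, rising from 6.83 ± 1.52 to 18.9 ± 6.03 CPM (edgeR adjusted p = 0.000252), and the summed level of the 7 listed was 24.1 to 28.4 CPM in the controls against 30.9 to 40.9 CPM under E93RNAi. The rise of that sum rests on *Pxn*. *Hml*, its other large part, had 16.3 ± 1.31 CPM in the controls against 13.7 ± 3.65 CPM under E93RNAi (SD, n = 3). Without E93RNAi replicate 1 the list had 1 higher and 1 lower call. *Hml*, a defining haemocyte marker, had 10.8 to 17.8 CPM over the 6 samples (edgeR adjusted p = 0.256), and *He*, another, had 1 count in E93RNAi replicate 1 and 0 in the other 5 samples. The part of haemocytes in the level of *crq* was not tested.

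In mammals a CD36-family protein serves in lysosomes, and 8 fly lysosomal genes were read in the same fit. Of these, 1 rose, 1 fell and 6 did not pass the test, a share near the 24.3% of all tested genes that changed. Their median log2 fold change was 0.02. *Npc2a*, a sterol-binding protein gene, rose from 17.0 ± 2.44 to 28.9 ± 2.94 CPM (SD, n = 3; edgeR adjusted p = 0.000146), and *spin*, a lysosomal transporter gene, fell from 135.3 ± 1.79 to 121.4 ± 4.17 CPM (edgeR adjusted p = 0.0164). The call of *spin* was lost without control replicate 2, control replicate 3 or E93RNAi replicate 3 (edgeR adjusted p of 0.0568 to 0.0751), which left 1 call in the list.

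Of the 7 further family genes, 4 passed the filter on low counts. Of those 4, 2 fell and none rose, where 10.5% of all tested genes fell and 13.8% rose. *CG40006* had 498.8, 462.2 and 481.2 CPM in the controls against 389.6, 393.0 and 398.4 CPM under E93RNAi, a log2 fold change of -0.29 ± 0.04 (SE, n = 3 per group; edgeR adjusted p = 0.000323). *CG10345* had 408.5, 411.4 and 420.7 CPM in the controls against 344.2, 378.2 and 365.3 CPM under E93RNAi, a log2 fold change of -0.19 ± 0.05 (SE; edgeR adjusted p = 0.00833). For both, every E93RNAi sample was below every control sample, where 37.5% of all tested genes had groups that did not overlap in either direction. *dsb*, which encodes debris buster, had 0.38 with a 95% interval of -0.07 to 0.83, and *CG3829* had 0.42 with an interval of -0.18 to 1.02, both log2 fold changes on 26 to 111 counts per sample. *CG2736* had 1 to 9 counts, *CG7227* 0 to 4 and *CG31741* 0 in every sample, the last allowing up to 0.163 to 0.180 CPM by 3 counts.

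**Figure D4:**
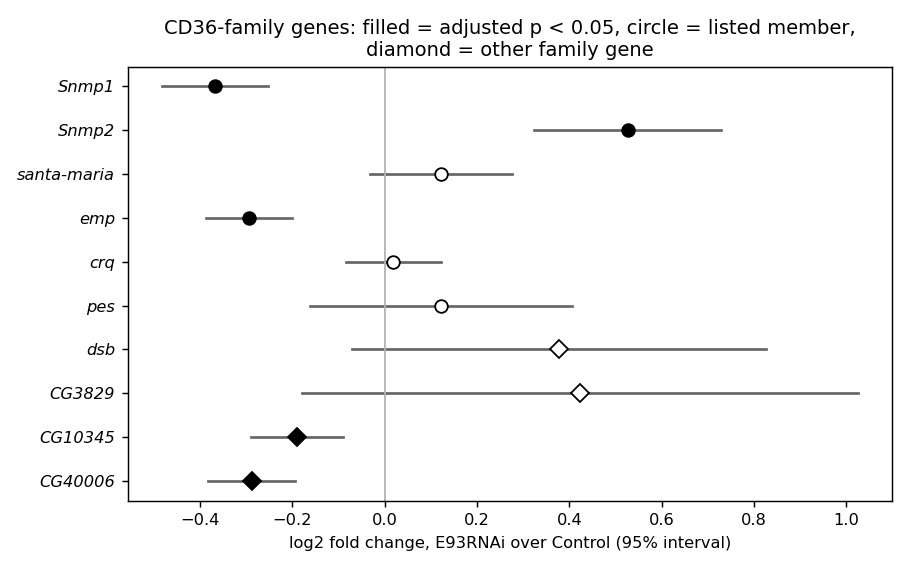
Log2 fold changes (E93RNAi over control) with 95% intervals for the 10 CD36-family genes that could be tested (n = 3 per group); filled symbols have an adjusted p under 0.05 in edgeR, circles are the listed members and diamonds the other family genes. *Snmp1*, *emp*, *CG40006* and *CG10345* lie between -0.37 and -0.19, and *Snmp2* at 0.53.

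Levels per kilobase of exon put the 14 family genes in an order that ran in control from *Snmp1* at 837.1 to *ninaD* at 0.0436 among those with counts in every sample. *Snmp1* was first in both groups. In control, *emp* followed at 206.1 ± 6.21, *CG40006* at 185.6 ± 7.05, *CG10345* at 170.7 ± 2.62 and *crq* at 56.1 ± 2.92 CPM per kilobase (SD, n = 3), with no overlap between neighbours. *santa-maria* at 23.1 ± 0.646 and *Snmp2* at 21.0 ± 3.24 CPM per kilobase overlapped, and *pes* stood apart below them at 1.90 ± 0.125.

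In E93RNAi the order of the first 5 was the same, but *CG40006* at 152.0 ± 1.71 and *CG10345* at 149.6 ± 7.09 CPM per kilobase now overlapped. *Snmp2* at 30.3 ± 2.64 stood before *santa-maria* at 25.1 ± 2.97 CPM per kilobase, again with overlapping samples. *dsb* and *CG3829* overlapped in both groups, as did *CG2736* and *ninaD*, and *ninaD* and *CG7227*, near the floor. *Snmp1* made up 73.1% ± 0.629 of the 7 members' summed level per kilobase in control and 69.7% ± 0.737 in E93RNAi (SD, n = 3; exact permutation p = 0.1).

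**Figure D5:**
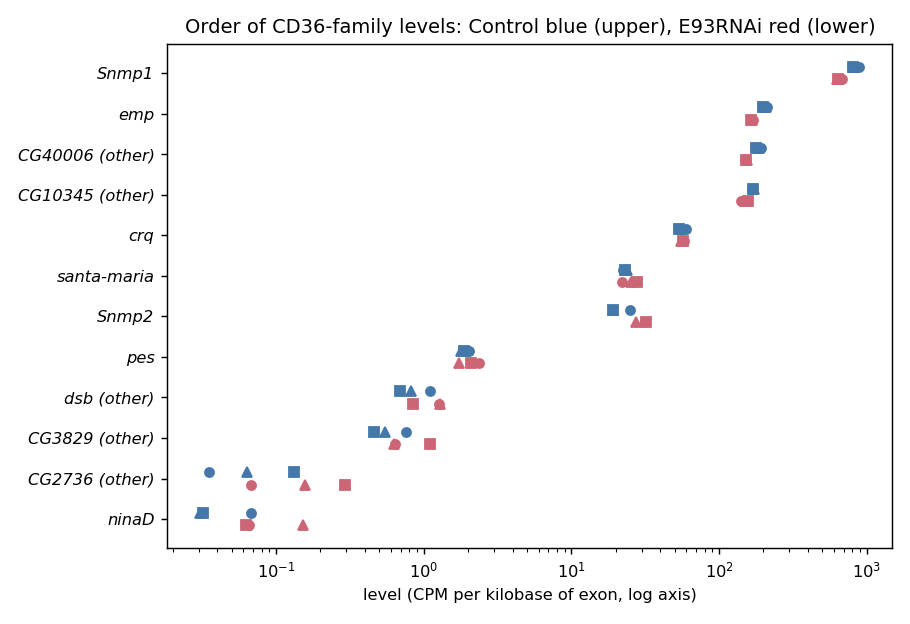
Levels of the 12 CD36-family genes with counts in all 6 samples, in CPM per kilobase of exon on a log axis, ordered by the control mean; blue symbols are control and red symbols E93RNAi, by replicate. *Snmp1* is highest in every sample and *ninaD* and *CG2736* lie near the floor.

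Some family genes are neighbours. *emp* lies 1114 bases from *CG2736*, *pes* 203 bases from *CG7227* and *ninaD* 647 bases from *CG31741*. In the first pair, *emp* had 10277 to 13303 counts per sample and *CG2736* 1 to 9. In the second, *pes* had 124 to 156 counts and *CG7227* 0 to 4, and in the third both genes had at most 5.

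The genes whose log2 CPM followed *Snmp1* and *Snmp2* most closely over the 6 samples were listed as a description, among 8706 candidates with a mean of at least 20 counts. For *Snmp1* they were *CG6484*, *CG6067*, *CG10947*, *CG30158* and *CG17163*, with Pearson r of 0.993 to 0.997. All 5 fell in E93RNAi, *CG17163* losing its call without control replicate 1 or 3 or E93RNAi replicate 2 or 3 (edgeR adjusted p of 0.0648 to 0.0876), with library totals (0.0590) and by DESeq2 (adjusted p = 0.112). *CG6484* fell from 20.9 ± 2.15 to 11.8 ± 1.12 CPM (SD, n = 3), and 686 candidates had an r over 0.9. For *Snmp2* they included *foi*, *CG31808*, *TyrRII* and *Cyp318a1*, with r of 0.987 to 0.994. *foi* did not pass the test (log2 fold change 0.13, edgeR adjusted p = 0.0587). *CG31808* rose by 0.23 (edgeR adjusted p = 0.0126) and *Cyp318a1* by 1.01 (edgeR adjusted p = 0.0046) on the log2 scale. *TyrRII*, a tyramine receptor gene, was at 0.781 ± 0.485 CPM in the controls against 3.34 ± 0.657 CPM under E93RNAi (SD, n = 3). Though called higher, it passed the filter on low counts and the mean of 20 counts only with its E93RNAi samples. For *Snmp2*, 367 candidates had an r over 0.9. All of these values share the same 6 libraries and their split into 2 groups.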

How the data were processed

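Antennal RNA of 6 samples (3 control, 3 E93RNAi) was sequenced from libraries made with a poly(A) and strand-keeping kit from 100 ng of total RNA, per the labels' protocols. Each sample has 1 deposited file of raw read counts by FlyBase gene, with no normalization by the authors. The submitters' processing notes name cutadapt 1.8, STAR 2.5.3a, HTSeq 0.9.1 and the build BDGP6. The annotation release and the strand setting are not given in the sources used here. The 5 summary lines of unassigned reads were left out of library sizes; they held 2.65% to 2.93% of reads in no gene, 1.93% to 2.04% ambiguous and 8.47% to 8.85% not unique.

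Symbols were found for 17560 of 17698 identifiers. Positions and exon lengths came from Ensembl release 115 (BDGP6.54), the same assembly by name. No sequences were used here. Genes were filtered by filterByExpr, which left 9237, scaled by TMM and fitted on group alone with edgeR's quasi-likelihood test, with Benjamini-Hochberg adjustment over all tested genes. Versions were DESeq2 1.42.0, limma 3.58.1, R 4.3.3 and edgeR 4.0.16. SE came from the F statistic, and levels are CPM with TMM factors. The members and gene lists were chosen with earlier results of these data known. All members are named; of each list, genes that passed the test may be named, and a few others were chosen after their values were seen. The genes most like *Snmp1* and *Snmp2* were the 5 with the highest Pearson correlation of log2(CPM + 0.5), of which 1 is not reported here.

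Replicates were pooled animals described as biological. No 2 libraries of a group agreed within sampling noise (chi-square per degree of freedom 3.33 to 7.25). The labels speak of pairs of replicates, and same-numbered samples had correlated deviations of 0.155, 0.0656 and 0.121 over 8707 genes. Alternatives were DESeq2 size factors, library totals, 2 other filters, DESeq2, limma voom, the replicate block, each sample left out and an adjusted p under 0.01. In simulated counts for this comparison (9175 genes), edgeR found 75 of 100 genes changed by 0.4 and 87 of 100 changed by 1 on the log2 scale, with 10 false calls. Intervals and floors cover counting error and replicate spread only.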

Additional observations from a re-analysis of the deposited data

How the results depend on the processing

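The calls of *Snmp1*, *Snmp2* and *emp* held in all 13 alternatives tried for each, with log2 fold changes of -0.40 to -0.32, 0.46 to 0.66 and -0.32 to -0.27. With 1 sample left out at a time they were -0.40 to -0.32 for *Snmp1*, 0.46 to 0.66 for *Snmp2*, -0.32 to -0.28 for *emp*, 0.038 to 0.20 for *santa-maria*, -0.013 to 0.059 for *crq* and 0.010 to 0.23 for *pes*. *crq*, never past the threshold, was -0.013 without control replicate 2 (adjusted p = 0.905, edgeR; 0.404 to 0.985 over its alternatives), and *santa-maria* passed at 0.20 without E93RNAi replicate 1 (adjusted p = 0.0137, edgeR; up to 0.748 over its alternatives). The cause was not tested.

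The number of changed members was 3 in every alternative but that one, where it was 4. The count over all genes ranged from 1711 to 2155 with 1 sample left out, and was 1482 at an adjusted p under 0.01, by construction of the stricter threshold. With the replicate number as a block, 2430 genes and the same 3 members changed, at -0.37 for *Snmp1*, 0.53 for *Snmp2* and -0.29 for *emp*, and the block changed no other call of a member. The *Snmp1* to *Snmp2* log2 ratio differed between the groups by -0.90, and by -0.97 to -0.84 with 1 sample left out. List counts under the same alternatives, added after the data were seen, moved by over 1.5 times in 21 cases and not in the other 135, the 21 being in the engulfment, lysosome, haemocyte, fat body and muscle lists. For 27 of the genes named beside the members, 336 values kept their call and direction and 15 lost the call, all of *Eip93F*, *ced-6*, *spin* or *CG17163*.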

Other observations

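Of the 6 tested family members, 5 had their highest control level in control replicate 1, and 4 their highest E93RNAi level in E93RNAi replicate 1. *santa-maria* had its lowest level in replicate 1 of each group (124.7 CPM in control and 122.5 CPM in E93RNAi), and *Snmp2* was highest in E93RNAi replicate 2. This ordering was noticed after the values were seen, and no test was made of it.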
